A study of Homo sapiens with 6 samples.

Results

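The genes described here encode the nuclear pore complex and the proteins that carry cargo through it. They are 40 genes chosen by symbol to contrast scaffold, central channel and transport factors, 26 of them nucleoporins and 14 soluble transport factors, out of 23354 genes in the deposited table. All 40 were found in the table under the listed symbol, and all 40 passed the filter on low counts. The cells were LNCaP, an established human prostate cancer line that responds to androgens, grown with fetal bovine serum. The DHT group was 3 libraries of cells given the androgen dihydrotestosterone (DHT) at 1 nM for 48 h. The DHT+WBM group was 3 libraries of cells given the same DHT together with an extract (3 µL/mL) made from white button mushroom (WBM), also for 48 h. Both groups carry DHT, so neither shows the level of these genes without added androgen, and whether the DHT group received a vehicle in place of the extract is not stated in the labels. The single comparison is DHT+WBM against DHT.

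The nuclear pore is a ring-shaped assembly that spans the nuclear envelope. Nucleoporins of the membrane anchor it, an outer ring built of Y-shaped complexes and an inner ring form its scaffold, and nucleoporins rich in phenylalanine-glycine (FG) repeats fill the central channel with a mesh that lets only small molecules and escorted cargo pass. Importins and exportins are the escorts, and the small GTPase Ran gives the traffic its direction, because RCC1 loads it with GTP in the nucleus and RANGAP1 triggers GTP hydrolysis in the cytoplasm. Several of these proteins have a further task in cell division, when the envelope breaks down and the pores are taken apart and rebuilt.

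The libraries held 19127357 to 21490953 counts, and the 40 genes took 0.785 to 0.814% of the counts in DHT and 0.658 to 0.670% in DHT+WBM. LNCaP identity was checked on 8 luminal prostate markers, whose sum ran from 4117 to 4337 CPM in DHT and from 2752 to 2835 CPM in DHT+WBM, where CPM is the count scaled to a common library size with TMM factors. Of these 8, 4 were lower, 1 was higher and 3 did not pass an adjusted p under 0.05 in the edgeR test described below. At that threshold 58.2% of all tested genes were called, 29% lower and 29.2% higher. KLK3, an androgen-regulated secreted protease, made most of the fall, from 1683 ± 75.4 to 616.7 ± 6.25 CPM, and KRT8 rose from 261.6 ± 20.7 to 299.5 ± 3.64 CPM. The 6 fibroblast and stromal markers summed to 15.3 to 17.5 CPM in DHT and 14.9 to 15.6 CPM in DHT+WBM, with COL1A2 at 0 counts in every library and COL3A1 lower (log2 fold change -0.89). The 8 leukocyte markers summed to 2.72 to 2.96 CPM and 3.85 to 5.17 CPM, with MS4A1 at 0 and ITGAM higher at 0.636 ± 0.0414 and 1.41 ± 0.130 CPM, and the 4 endothelial markers to 2.37 to 3.27 CPM and 2.21 to 2.34 CPM, with CDH5 at 0. The part of these marker levels in the results was not tested. In bulk RNA, fewer cells of a kind and less RNA per cell cannot be told apart.

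Sequence first shows what kind of proteins and promoters these are. Phenylalanine-glycine pairs were counted in the longest open reading frame of each gene's GENCODE v29 transcripts. NUP214 held 44 such pairs in 2131 residues, NUP98 held 41 in 1817, NUP153 held 29 in 1506 and POM121 held 24 in 1249. By density, 7 of the 26 nucleoporins had at least 1 pair per 100 residues, namely NUP98 with 2.26, NUP214 with 2.06, NUP153 with 1.93, POM121 with 1.92, NUP54 with 1.78, NUP62 with 1.15 and NUP50 with 1.07. The 4-residue form that begins with glycine and leucine occurred 9 times in NUP98, and the form with 2 phenylalanines around 1 residue occurred 15 times in NUP153 and 12 times in RANBP2. Scaffold proteins held few: NUP155 had 1 pair in 1391 residues and NUP37 had 0 in 326.

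Promoter windows of 250 bases before the annotated start were found in RefSeq (GRCh38.p14) for 36 of the 40 genes, and the missing entries are NUP43, KPNA4, KPNB1 and RANBP1. For the 10 of the 36 genes with more than 1 window, as for all other genes, the first window listed was used, and the motif counts depend on that choice. Each window was searched on both strands for CCAAT, for TTTGAA (the cell cycle genes homology region, CHR), for 3 E2F forms (TTTCGCGC, TTTGGCGC and TTTCCCGC), for the E-box CACGTG and for the NRF1 core GCGCATGC. CCAAT was in 15 of 36 windows (41.7%), against 33% of all 27305 genes with a window and 35.1% of the 10304 of them that were also tested for expression. TTTGAA was in 8 windows (22.2%), against 13.6% of all and 8.35% of tested genes. The NRF1 core was in 4 windows (11.1%), those of NUP107, NUP62, NUP50 and RCC1, against 2.81% of all and 4.8% of tested genes. CACGTG was in 5 (13.9%), against 6.49% and 9.05%, and no E2F form was found in the 36 windows, against 2.38% of all and 3.84% of tested genes.

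Windows of 4 genes are shown, 1 each for the scaffold, the central channel and the transport factors, and TPR, which did not pass the test. They run 5′ to 3′ towards the start, with motif matches in capitals. The NUP35 window (chr2:183124193-183124442, plus strand) has TTTGAA 35 bases and CCAAT on the other strand 24 bases before the start. The NUP62 window (chr19:49929505-49929754, minus strand) has 2 overlapping NRF1 cores, 1 on each strand. The KPNA2 window (chr17:68035485-68035734, plus strand) has CCAAT 89 and 58 bases before the start and TTTGAA on the other strand at 99 bases. The TPR window (chr1:186375254-186375503, minus strand) has CCAAT on the other strand at 165 and 79 bases. A match of letters is a description and not a binding site. CCAAT also occurred in windows of uncalled genes (TPR, NUP214 and KPNA6), as did TTTGAA (IPO7).
NUP35: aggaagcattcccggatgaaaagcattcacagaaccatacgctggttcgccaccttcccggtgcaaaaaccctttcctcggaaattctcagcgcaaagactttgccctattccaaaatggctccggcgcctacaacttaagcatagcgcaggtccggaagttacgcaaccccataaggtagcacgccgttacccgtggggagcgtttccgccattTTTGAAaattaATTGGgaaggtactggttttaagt
NUP62: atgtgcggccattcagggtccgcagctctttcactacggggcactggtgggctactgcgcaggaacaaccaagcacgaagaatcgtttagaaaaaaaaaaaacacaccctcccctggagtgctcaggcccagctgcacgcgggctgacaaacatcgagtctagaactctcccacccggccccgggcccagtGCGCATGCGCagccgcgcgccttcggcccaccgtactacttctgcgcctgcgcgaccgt
KPNA2: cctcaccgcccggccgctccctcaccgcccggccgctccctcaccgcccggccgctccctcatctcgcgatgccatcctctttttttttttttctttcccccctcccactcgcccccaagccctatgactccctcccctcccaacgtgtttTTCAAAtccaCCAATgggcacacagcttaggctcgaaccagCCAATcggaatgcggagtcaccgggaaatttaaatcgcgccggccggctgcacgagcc
TPR: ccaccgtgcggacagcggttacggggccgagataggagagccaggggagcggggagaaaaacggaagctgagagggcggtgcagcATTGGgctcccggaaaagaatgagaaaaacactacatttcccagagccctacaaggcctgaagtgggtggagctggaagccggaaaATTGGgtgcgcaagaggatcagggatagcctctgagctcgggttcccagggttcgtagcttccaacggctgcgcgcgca

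Most of the 40 nuclear pore and transport genes were lower with the extract. The 40 were chosen with earlier results of these data known. By edgeR's quasi-likelihood test, adjusted over all 13466 tested genes by the Benjamini-Hochberg method, 34 of the 40 were lower in DHT+WBM, 0 were higher and 6 did not pass an adjusted p under 0.05. The median log2 fold change of the 40 (DHT+WBM over DHT) was -0.34, and the range ran from -0.64 for NUP35 to 0.03 for NUP43, so the changes were moderate in size. Summed over the 40 genes, the level was 8135 ± 177 CPM in DHT and 6520 ± 93.0 CPM in DHT+WBM (SD, n = 3), a ratio of 0.801.

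These counts stand against a broad background. Of all tested genes 58.2% were called, 29% lower and 29.2% higher, and the median log2 fold change of all tested genes was 0.00. Among the 7425 genes at least as abundant in DHT as the lowest of the 40 (24.3 CPM), 37.3% were lower and 25.9% higher. For 34 of the 40 the 3 libraries of DHT+WBM all lay below the 3 of DHT and for 6 the groups overlapped, whereas of all tested genes 31.1% lay wholly lower in this way and 62.2% did not overlap in either direction. The count of 0 higher members was also 0 at an unadjusted p under 0.05 with edgeR, DESeq2 and limma-voom, and 33 members were lower with each of DESeq2 and limma-voom. A log2 fold change below 0 was found for 39 of the 40.

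**Figure D1:**
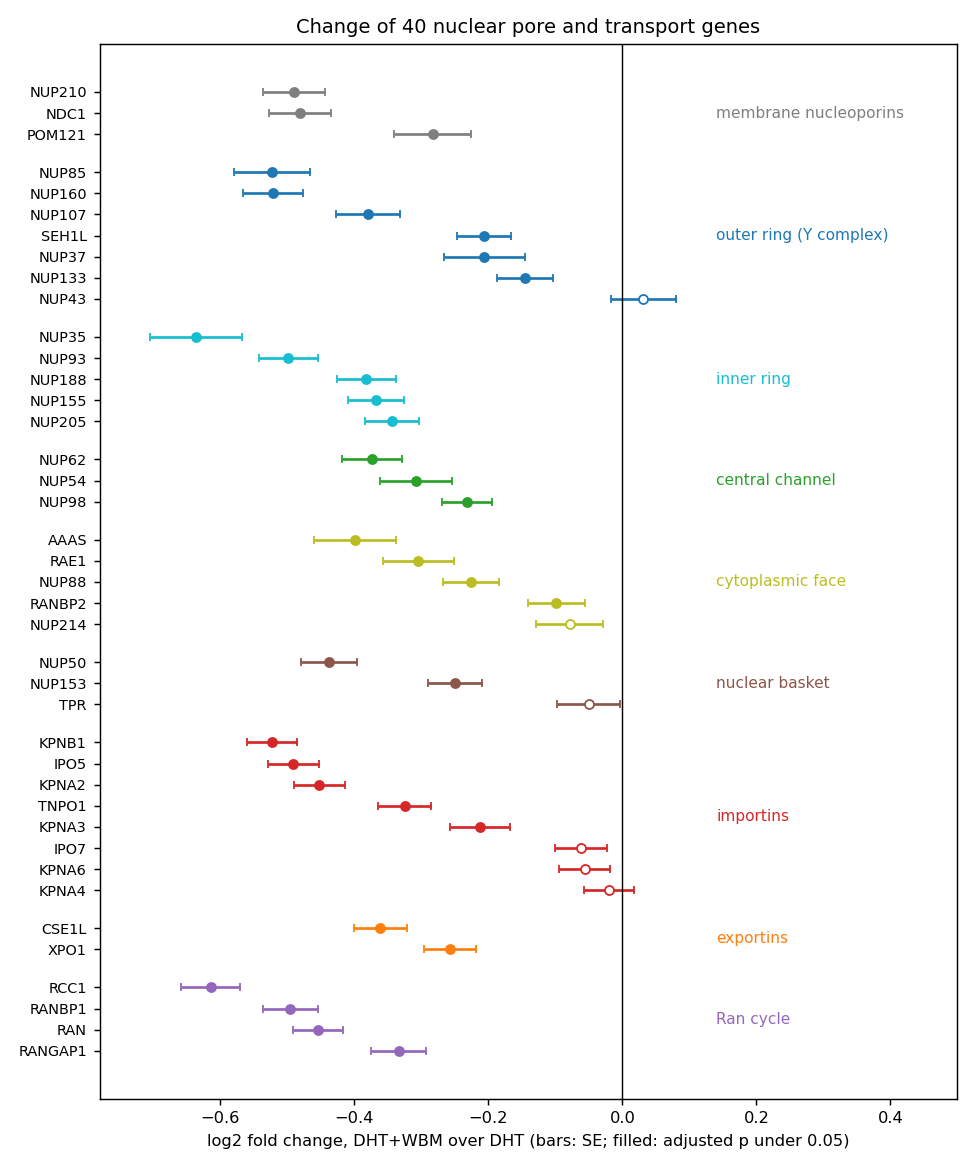
Log2 fold change of DHT+WBM over DHT for each of the 40 genes, grouped by place or role in the pore, with bars showing the standard error and filled points an adjusted p under 0.05. The 34 filled points all lie left of 0, and the 6 open points lie between -0.08 and 0.03.

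Set side by side, the 12 scaffold genes had 11 lower and a median log2 fold change of -0.37, the 3 central channel genes had 3 lower and a median of -0.31, and the 14 transport factors had 11 lower and a median of -0.35. The 3 membrane nucleoporins had 3 lower and a median of -0.48, the 5 genes of the cytoplasmic face 4 lower and -0.23, and the 3 of the nuclear basket 2 lower and -0.25. Summed levels gave ratios of DHT+WBM to DHT of 0.798 for the scaffold, 0.830 for the channel and 0.789 for the transport factors. The corresponding ratio was 0.725 for the membrane nucleoporins, 0.894 for the cytoplasmic face and 0.867 for the basket. No difference between classes was tested. The scaffold ran from -0.64 to 0.03, the transport factors from -0.61 to -0.02 and the channel genes from -0.37 to -0.23.

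**Figure D2:**
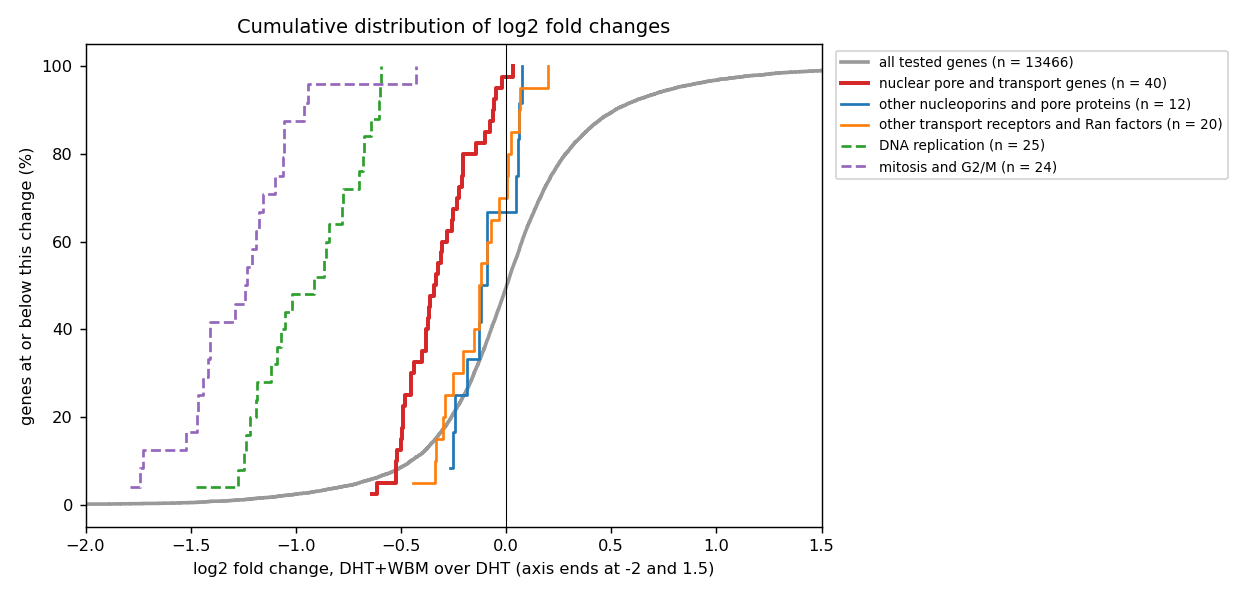
Cumulative share of genes (%) at or below each log2 fold change, for the 40 nuclear pore and transport genes, all 13466 tested genes, and 4 further lists. The median of the 40 genes, at -0.34, lies below that of all tested genes and above those of the DNA replication and mitosis lists, at -0.91 and -1.24, while the lower tail of all tested genes extends beyond the 40.

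Among the membrane nucleoporins, which anchor the pore in the envelope, NUP210 and NDC1 fell most. NUP210 (hg19 chromosome 3, 13357737 to 13461809, minus strand), a large glycoprotein of the pore membrane, was at 264, 226 and 229 CPM in the DHT libraries and at 171, 163 and 178 CPM in the DHT+WBM libraries. Its log2 fold change was -0.49 ± 0.05 (SE, edgeR adjusted p = 1.19e-11). NDC1 (chromosome 1, 54231134 to 54304225), needed for inserting pores into the membrane, went from 170, 181 and 155 CPM to 119, 127 and 117 CPM (log2 fold change -0.48 ± 0.05, edgeR adjusted p = 2.19e-11). In both genes every DHT+WBM library lay below every DHT library. POM121 fell by 0.28 on the log2 scale, from 44.6 ± 3.36 to 36.6 ± 1.68 CPM. It has a near-identical copy, POM121C, whose log2 fold change was -0.19, and the split of reads between the copies is uncertain.

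The outer ring is assembled from Y complexes, whose subunits are joined in fixed numbers. Of its 7 genes here 6 fell. The median log2 fold change of the 7 was -0.21, and the changes differed in size from gene to gene. NUP85 (chromosome 17, 73201597 to 73231854) and NUP160 (chromosome 11, 47799670 to 47870057), which encode subunits of the arms of the Y, fell most. NUP85 was at 38.2, 38.3 and 38.1 CPM in DHT and at 27.3, 26.6 and 25.8 CPM in DHT+WBM (log2 fold change -0.52 ± 0.06, edgeR adjusted p = 4.59e-10). NUP160 was at 119, 122 and 111 CPM in DHT and at 79.7, 82.1 and 83.5 CPM in DHT+WBM (log2 fold change -0.52 ± 0.04). The groups were far apart in both genes compared with the spread within them. NUP107, a subunit of the stem of the Y, fell by 0.38, and its stem partner NUP133 fell by 0.15, on the log2 scale. The beta-propeller subunit genes SEH1L and NUP37 each fell by 0.21.

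NUP43, another beta-propeller subunit of the Y complex, was the exception. It was at 68.3, 72.4 and 66.4 CPM in DHT and at 69.8, 74.7 and 67.3 CPM in DHT+WBM, and the groups overlapped. Its log2 fold change was 0.03 ± 0.05 (edgeR adjusted p = 0.604), and the sign turned without DHT+WBM replicate 2 (-0.02). Levels were compared between genes per kilobase of the deposited gene length, which is shorter than the span between the coordinates. On that scale the 7 outer ring genes ranged from 11.7 CPM per kilobase for NUP85 to 43.5 for SEH1L in DHT. The transcripts of the subunits thus stood at unequal levels in DHT by this measure, which depends on the length used.

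All 5 inner ring genes fell, the median log2 fold change being -0.38 and the range running from -0.64 to -0.34. NUP35 (chromosome 2, 183984750 to 184026408), a small linker of the inner ring that touches the membrane, had the largest fall of the 40 genes. It was at 24.2, 24.6 and 24.2 CPM in DHT and at 15.2, 16.2 and 15.6 CPM in DHT+WBM, which is 1.55-fold lower (log2 fold change -0.64 ± 0.07, edgeR adjusted p = 3.01e-10). In CPM it was also the least abundant of the 40, with 2458 counts over the 6 libraries. NUP93 (chromosome 16, 56764017 to 56878861), the linker that ties the inner ring to the channel, was at 111, 109 and 113 CPM in DHT and at 79.9, 75.03 and 80.3 CPM in DHT+WBM (log2 fold change -0.50 ± 0.04). The large scaffold genes NUP155, NUP188 and NUP205 fell by 0.37, 0.38 and 0.34. NUP188 overlaps DOLK on the opposite strand, whose log2 fold change was -0.03, and how reads of the shared part were counted is not known.

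All 3 central channel genes fell. Their median log2 fold change of -0.31 lay between that of the inner ring (-0.38) and that of the outer ring (-0.21). No difference between the classes was tested. NUP62 (chromosome 19, 50410084 to 50432988), the main FG nucleoporin of the channel, was at 94.7, 96.8 and 102 CPM in DHT and at 75.1, 75.3 and 76.2 CPM in DHT+WBM. Its log2 fold change was -0.37 ± 0.04 (edgeR adjusted p = 2.94e-09). NUP62 overlaps ATF5 on the opposite strand, where the log2 fold change was -0.31. NUP54, which forms a coiled-coil complex with NUP62, was at 56.8, 65.0 and 57.1 CPM in DHT and at 47.9, 49.9 and 46.8 CPM in DHT+WBM (log2 fold change -0.31 ± 0.05). NUP98, whose transcript encodes the precursor of both the FG nucleoporin Nup98 and the Y complex subunit Nup96, fell by 0.23, from 321 ± 6.36 to 274 ± 4.50 CPM. For all 3 genes the groups did not overlap.

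The 5 genes of the cytoplasmic face split into those that fell clearly and those near 0. AAAS (chromosome 12, 53701240 to 53715412), which encodes the pore protein aladin, was at 42.5, 37.4 and 43.5 CPM in DHT and at 32.5, 28.9 and 32.1 CPM in DHT+WBM (log2 fold change -0.40 ± 0.06, edgeR adjusted p = 6.60e-07). RAE1 (chromosome 20, 55926145 to 55953519), an mRNA export factor that binds NUP98, was at 47.1, 45.2 and 48.1 CPM and at 39.2, 38.5 and 36.1 CPM (log2 fold change -0.30 ± 0.05). NUP88, the partner of NUP214, fell by 0.23.

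The genes of the long cytoplasmic filament proteins lay near the threshold. RANBP2, whose product binds Ran and acts as a SUMO ligase, was at 267, 258 and 234 CPM in DHT and at 236, 226 and 247 CPM in DHT+WBM, so the groups overlapped. Its log2 fold change of -0.10 ± 0.04 passed narrowly (edgeR adjusted p = 0.0482), and over the 15 alternative settings the adjusted p ran from 0.00172 to 0.295. The call was lost with DESeq2 (adjusted p = 0.0810), with limma-voom (adjusted p = 0.0524), with upper-quartile factors (edgeR adjusted p = 0.187), with library totals alone (edgeR adjusted p = 0.295), at a threshold of 0.01, and without DHT replicate 1 or 2 or DHT+WBM replicate 1 or 2 (edgeR adjusted p = 0.251, 0.108, 0.0926 and 0.207). NUP214, an FG nucleoporin, was at 97, 87.4 and 82.6 CPM in DHT and at 86.2, 78.9 and 87.7 CPM in DHT+WBM (log2 fold change -0.08 ± 0.05, edgeR adjusted p = 0.182).

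In the nuclear basket, which faces the nucleoplasm, NUP50 fell most. NUP50 (chromosome 22, 45559726 to 45583890), a mobile nucleoporin that helps release imported cargo, was at 124, 129 and 123 CPM in DHT and at 94.7, 91.6 and 91.5 CPM in DHT+WBM (log2 fold change -0.44 ± 0.04, edgeR adjusted p = 1.82e-11). NUP153 (chromosome 6, 17615266 to 17707065), which anchors the basket, was at 163, 167 and 160 CPM in DHT and at 133, 141 and 137 CPM in DHT+WBM (log2 fold change -0.25 ± 0.04). Both genes had groups that did not overlap. TPR, the coiled-coil protein that forms the filaments of the basket, was at 218, 224 and 187 CPM in DHT and at 195, 199 and 213 CPM in DHT+WBM, with overlap and a fitted log2 change of -0.05 ± 0.05 (edgeR adjusted p = 0.370).

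DHT replicate 3 was the lowest DHT library for TPR, RANBP2 and NUP214. That was not particular to them, since it was also lowest for NDC1, NUP160, NUP205, IPO7 and XPO1, among others, though not for NUP62 or RCC1. Without that library TPR and NUP214 passed the test, with log2 fold changes of -0.13 (edgeR adjusted p = 0.00904) and -0.13 (edgeR adjusted p = 0.0247), and RANBP2 was at -0.15 (edgeR adjusted p = 0.00172). The deposited gene lengths of TPR, RANBP2 and NUP214 were 9.95, 11.7 and 7.53 kb. Across the 40 genes the log2 fold change and the gene length had a Pearson r of 0.44 and a Spearman rho of 0.38, a description over genes that share the same 6 libraries. The part of gene length in the changes was not tested.

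**Figure D3:**
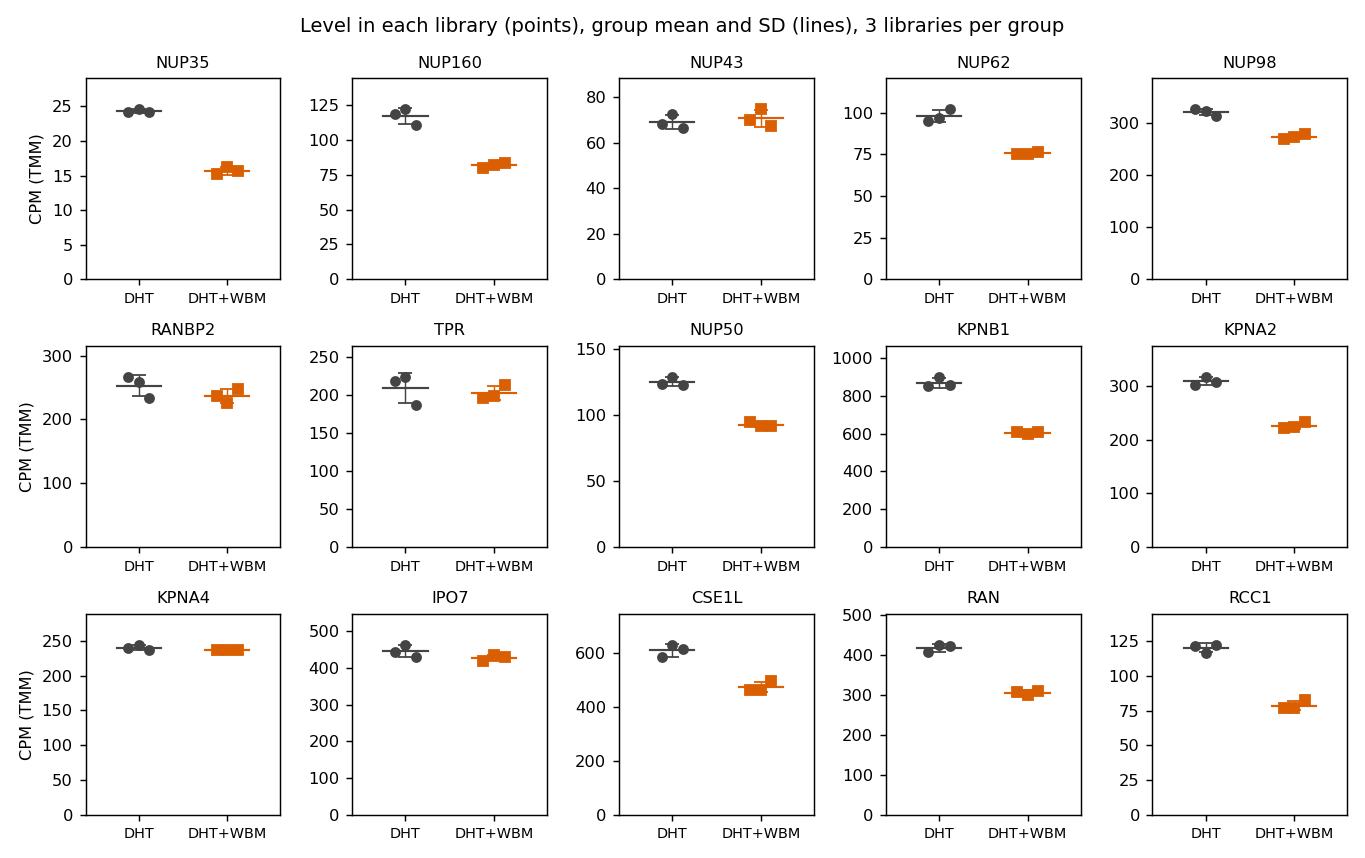
TMM-normalised CPM of 15 of the genes in each library, with DHT as circles and DHT+WBM as squares and lines for the group mean and SD of 3 libraries. NUP35, KPNB1 and RCC1 show groups that are far apart, while NUP43, TPR, KPNA4 and IPO7 show groups that overlap.

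Of the 8 importin genes, which encode carriers of cargo into the nucleus, 5 fell and 3 did not pass the test. KPNB1 (chromosome 17, 45727204 to 45761004), the gene of importin beta, which works with every importin alpha, was at 852, 900 and 858 CPM in DHT and at 608, 600 and 608 CPM in DHT+WBM. It was 1.44-fold lower (log2 fold change -0.52 ± 0.04, edgeR adjusted p = 5.33e-15). IPO5 (chromosome 13, 98605929 to 98676550), a carrier of ribosomal proteins and histones, was at 396, 409 and 393 CPM in DHT and at 286, 278 and 290 CPM in DHT+WBM (log2 fold change -0.49 ± 0.04). TNPO1, the transportin of RNA-binding proteins, fell by 0.32. IPO7, another carrier of ribosomal proteins and histones, was at 444, 463 and 431 CPM in DHT and at 418, 434 and 430 CPM in DHT+WBM, with overlap between the groups and a fitted log2 change of -0.06 ± 0.04 (edgeR adjusted p = 0.169).

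The importin alpha genes, adaptors that read the classical nuclear localization signal and bind importin beta, did not move by the same amount. KPNA2 was at 303, 318 and 308 CPM in DHT and at 222, 224 and 233 CPM in DHT+WBM (log2 fold change -0.45 ± 0.04, edgeR adjusted p = 6.42e-13). KPNA3 fell by 0.21. KPNA4 was at 240, 244 and 236 CPM in DHT and at 237, 237 and 236 CPM in DHT+WBM (log2 fold change -0.02 ± 0.04, edgeR adjusted p = 0.663). KPNA4 values of DHT and DHT+WBM overlapped, and the sign turned positive under upper-quartile factors (0.01) and library totals alone (0.03). KPNA6 was at 196, 200 and 202 CPM in DHT and at 195, 194 and 186 CPM in DHT+WBM. All 3 of its DHT+WBM values lay below those of DHT, but by little, and the log2 fold change of -0.06 ± 0.04 did not pass (edgeR adjusted p = 0.213). KPNA1, which is not among the 40, had a fitted log2 change of 0.00 (edgeR adjusted p = 0.971).

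The makeup of the importin alpha transcripts is given per library. In levels per kilobase, KPNA2 made up 56.9, 57.3 and 56.9% of the summed KPNA1, KPNA2, KPNA3, KPNA4 and KPNA6 in the DHT libraries, and 49.8, 50.1 and 51.2% in the DHT+WBM libraries. The share of KPNA4 was 11.4 ± 0.20% in DHT and 13.6 ± 0.19% in DHT+WBM (SD, n = 3), and that of KPNA6 was 11.1 ± 0.19% and 12.9 ± 0.47%. KPNA2 stayed the most abundant of the 5 in every library. The sum of the 5 was 231, 240 and 235 CPM per kilobase in DHT and 193, 194 and 197 in DHT+WBM. Shares of a sum depend on each other, and they were not tested.

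**Figure D4:**
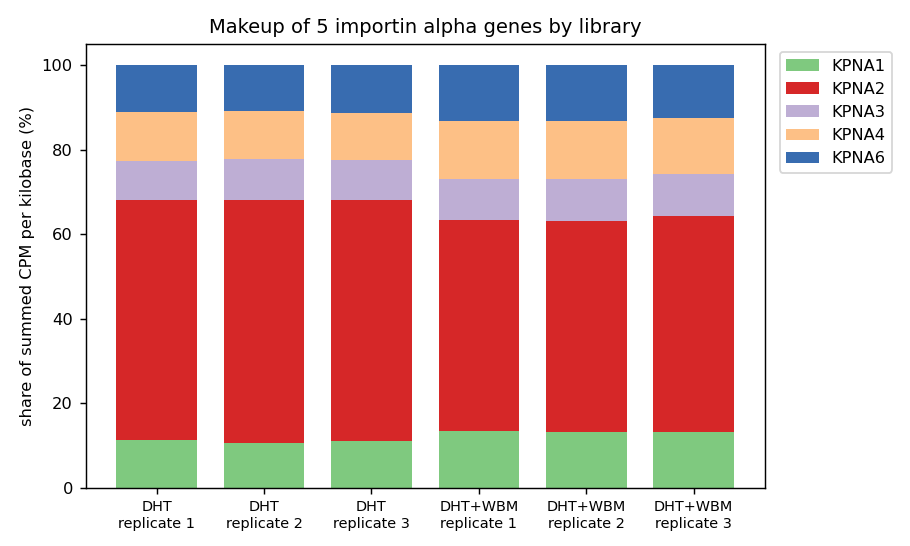
Share (%) of each of 5 importin alpha genes in their summed CPM per kilobase, 1 bar per library. The KPNA2 share is between 56.9 and 57.3% in the 3 DHT libraries and between 49.8 and 51.2% in the 3 DHT+WBM libraries.

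Both exportin genes fell. CSE1L (chromosome 20, 47662783 to 47713497), which returns importin alpha to the cytoplasm, was at 584, 631 and 614 CPM in DHT and at 464, 463 and 497 CPM in DHT+WBM (log2 fold change -0.36 ± 0.04, edgeR adjusted p = 5.34e-10). XPO1 (chromosome 2, 61705069 to 61765418), the main exporter of proteins with a leucine-rich signal, was at 464, 487 and 454 CPM in DHT and at 384, 388 and 403 CPM in DHT+WBM (log2 fold change -0.26 ± 0.04). The groups did not overlap for either gene.

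All 4 genes of the Ran cycle fell, and their median log2 fold change was -0.47. RCC1 (chromosome 1, 28832455 to 28865708), the exchange factor that loads Ran with GTP on chromatin, was at 122, 117 and 122 CPM in DHT and at 76.5, 76.6 and 82.4 CPM in DHT+WBM. It was 1.53-fold lower (log2 fold change -0.61 ± 0.04, edgeR adjusted p = 5.28e-15). RCC1 shares 4950 bases of its span with SNHG3 on the same strand, a noncoding host gene with a log2 fold change of -1. How reads of the shared part were counted is not known. RANBP1 (chromosome 22, 20105024 to 20114706), a co-activator of Ran GTP hydrolysis, was at 146, 153 and 153 CPM and at 108, 105 and 108 CPM (log2 fold change -0.50 ± 0.04). RAN itself was at 408, 427 and 423 CPM in DHT and at 308, 299 and 311 CPM in DHT+WBM (log2 fold change -0.45 ± 0.04), and reads of RAN may be shared with its processed pseudogenes. RANGAP1 fell by 0.33.

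Per kilobase of gene, the soluble transport factors had a higher median level in DHT than the scaffold or channel genes, but the ranges overlapped. The median of the transport factors was 58.6 CPM per kilobase (range 22.3 to 297). It was 26.2 for the scaffold (11.7 to 43.5) and 23.6 for the channel (19.2 to 41.6). RAN was highest at 297 CPM per kilobase, followed by KPNB1 at 196, CSE1L at 168 and KPNA2 at 134, and all 4 fell. The lowest of the 40 was POM121 at 4.55. Across the 40 genes the level per kilobase in DHT, on a log2 scale, and the log2 fold change had a Pearson r of -0.21 and a Spearman rho of -0.18. This is again a description over genes of the same libraries. The DHT level also enters the fold change, so the measures are linked by construction.

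**Figure D5:**
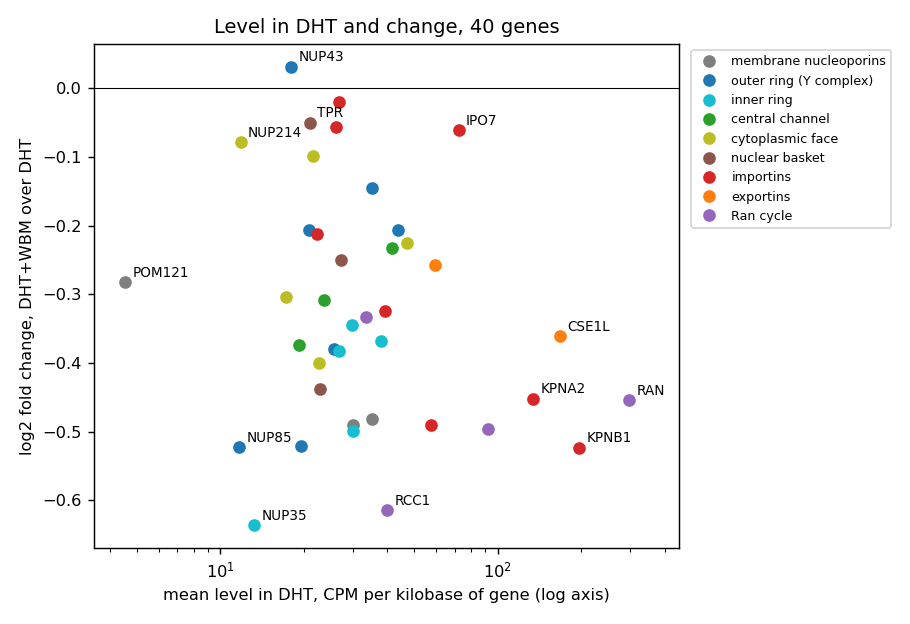
Mean level in DHT (CPM per kilobase of gene, log axis) against the log2 fold change for the 40 genes, coloured by class. RAN, KPNB1, CSE1L and KPNA2 lie furthest right with log2 fold changes between -0.52 and -0.36, while IPO7, at 72.3 CPM per kilobase, lies at -0.06.

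FG content was set beside the changes. It is not independent of the classes above, because NUP62, NUP54 and NUP98 of the central channel are all among the FG-rich nucleoporins. Of the 7 nucleoporins with at least 1 FG pair per 100 residues, 6 fell, the median log2 fold change being -0.28 and the range running from -0.44 to -0.08. Of the other 19 nucleoporins, 17 fell, with a median of -0.37 and a range from -0.64 to 0.03. The cutoff by density placed RANBP2 among these 19, with 22 FG pairs in 3224 residues and a log2 fold change of -0.10. The ranges overlapped for most of their width.

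Other genes of the same machinery had medians nearer 0. The members and these other lists were chosen with earlier results of these data known. The part of that choice in the difference between their medians was not tested. Of 12 other nucleoporins and pore proteins 6 fell and 0 rose, and the median of the 12 was -0.11 on the log2 scale. Beside these counts, 58.2% of all tested genes were called, 29% lower and 29.2% higher. Only 4 of the 12 were lower with upper-quartile factors, with library totals alone, at a threshold of 0.01 or without DHT replicate 2. The largest fall there was that of SEC13, a Y complex subunit shared with vesicle coats, at -0.27, from 108 ± 2.6 to 89.6 ± 1.61 CPM. NUP58, the channel partner of NUP62 and NUP54, fell by 0.25, beside -0.37 and -0.31 for its partners. Of 20 other transport receptors and Ran factors that passed the filter, 11 fell, 1 rose and 8 did not pass, with a median of -0.12. The largest fall was that of RANBP17, at -0.44 from a low level of 9.53 ± 0.91 CPM, and the gene that rose was IPO13, a two-way carrier, at 0.20 (from 59.8 ± 1.77 to 68.6 ± 1.47 CPM). KPNA7, an importin alpha of early embryos, was below the filter. With library totals alone, 7 in place of 11 of these receptors were lower.

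Genes of mRNA and snRNA export, which leave through the same pores, fell in 10 of 15 cases with 0 higher, and the median log2 fold change was -0.18. DDX39B had the largest fall at -0.83, but its DHT libraries spread widely, at 33.8, 15.9 and 21.6 CPM, against 13.4 ± 1.40 CPM in DHT+WBM. Without DHT replicate 1 its log2 fold change was -0.48, smaller in size than that of ALYREF in the same fit (-0.68). ALYREF, an adaptor that hands mRNA to the export receptor, fell from 95.2 ± 2.32 to 59.9 ± 5.00 CPM (log2 fold change -0.67), and NXF1, the export receptor itself, by 0.46. In the nuclear lamina and envelope, the surroundings of the pore, 7 of 13 genes fell and 3 rose, with a median of -0.15. Over all tested genes the shares were 29% lower and 29.2% higher. The lamin genes did not all go the same way. LMNB1 fell from 239 ± 16.1 to 97.7 ± 3.23 CPM (log2 fold change -1.29 ± 0.04), and LMNA rose from 104 ± 1.76 to 143 ± 4.50 CPM (log2 fold change 0.46 ± 0.04, edgeR adjusted p = 2.69e-12).

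Genes of cell division had medians further below 0 than the pore genes in the same libraries, a difference that was not itself tested. All 25 DNA replication genes tested were lower, the median log2 fold change being -0.91 and the range running from -1.48 for CDC45 to -0.59 for POLE2. All 24 mitosis genes were lower, with a median of -1.24 and a range from -1.79 for KIF20A to -0.43 for CDK1. Their summed levels went from 2364 ± 59.2 to 1224 ± 20.7 CPM and from 2616 ± 103 to 1244 ± 3.76 CPM. Of the 40 nuclear pore and transport genes, those with the largest falls, NUP35 at -0.64 and RCC1 at -0.61, lay near the smallest falls among the replication genes. The part of the lower cell division genes in the lower nuclear pore genes was not tested.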

How the data were processed

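RNA was sequenced from 6 LNCaP libraries, 3 per group, and groups were read from the sample titles. The file deposited by the authors holds unnormalized read counts with each gene's position and length. Per the submitters' processing notes, bcl2fastq 2.18.0.12, STAR 2.6.0, HTSeq 0.6.0, edgeR 3.28.1 and hg19 were involved. The annotation, the strand setting and any filters were not given in the sources used here. Without a known strand setting, reads of overlapping genes on opposite strands cannot be separated.

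The 40 members and the other lists were chosen with earlier results of these data known. Members were matched by symbol, and of the other lists 1 gene was found under its older symbol (NUP42 as NUPL2). The fit used edgeR 4.0.16 under R 4.3.3. The filter filterByExpr (minimum count 10, minimum total 15) kept 13466 genes, TMM factors were 0.979 to 1.02, and the two-sided quasi-likelihood test compared DHT+WBM with DHT, adjusted by Benjamini-Hochberg. Whether the replicates came from separate cultures is not stated in the labels, and the p-values reflect how far these libraries vary, and that variation may be technical. All pairs of replicates differed by more than sampling noise (chi-square test). Values in every library are given for the 2 largest called changes of each of 9 classes and for uncalled members. POM121, NUP98, RANBP2, KPNA2 and RAN were added after their values were seen, as were NUP58, ALYREF, NXF1, KPNA1 and LMNB2. In each other list the genes with the largest called fall and rise are named. The value of 1 leukocyte marker is not reported here.

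Alternatives were RLE, upper-quartile or no factors, 2 other filters, DESeq2 1.42.0, limma-voom (limma 3.58.1), a replicate block, a threshold of 0.01, and each library left out. Coordinates of genes are hg19, and those of promoters are GRCh38.p14. Counts were simulated for DHT+WBM against DHT over 13381 genes, of which 13181 were unchanged, with the same dispersion for every gene. Each size of change was given to 50 genes. The test called 50% of genes changed by 0.25 on the log2 scale, 80% at 0.5, 98% at 1 and 0.0607% of unchanged genes. In the data 58.2% of tested genes were called, which loosens the adjusted cutoff, so these shares cannot be carried over to the data.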

Additional observations from a re-analysis of the deposited data

How the results depend on the processing

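Over the 15 alternatives the number of lower members ran from 33 to 36 and that of higher members was 0 throughout, and 33 of the 34 lower members were lower under every alternative. The calls of RANBP2, TPR and NUP214 changed, as given above, and those of the other 37 members did not. The median log2 fold change of the members ran from -0.36 to -0.29, and it was smallest with library totals alone, where the median of all genes was 0.05. Replicate numbers are shared by the groups, but same-numbered libraries did not deviate together (correlations of 0.05, 0.04 and 0.02). With the replicate block 34 members were lower, the number found without it, and 0 were higher.

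Among the companion lists, library totals alone gave 7 lower transport receptors in place of 11 and 1 higher pore protein in place of 0. A threshold of 0.01 gave 1 higher lamina gene in place of 3. With each library left out in turn, higher lamina genes numbered 1 to 3 (1 without DHT replicate 3) and higher mRNA export genes 0 to 1 (1 without DHT replicate 2). The cause was not tested. The effect of depth was not tested, and a member that did not pass is not shown to be unchanged. For the 18 companion and marker genes tried under the same alternatives, chosen after their values were seen, no call changed.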
